A study of Schizosaccharomyces pombe with 6 samples.

Results

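The genes for 5S ribosomal RNA (5S rRNA) of the fission yeast Schizosaccharomyces pombe lie scattered as single copies, apart from the arrays of the larger ribosomal RNA genes. Members were taken from the annotation of assembly ASM294v3 as genes with an SPRRNA identifier that lie outside the ribosomal DNA arrays, on chromosome I up to 3.7 Mb and on chromosomes II and III. This gave 32 of 36 annotated dispersed 5S rRNA genes, 8 on chromosome I, 16 on II and 8 on III. The other 4 lie on chromosome I beyond 3.7 Mb, where probe positions did not match the annotation. All 32 were measured, from 142 probes within 500 bp of a gene (2 to 7 probes a gene, median 4).

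The arrays held Rad52 chromatin immunoprecipitation (ChIP-on-chip) samples in 2 groups of 3, labelled wild type (WT) and Δrad3. All cells had the mutation cdc25-22, which inactivates at high temperature the phosphatase that drives entry into mitosis. Cells had been held at 36.5 °C for 4 h to block the cycle, moved to 25 °C, treated with 6 mM hydroxyurea and collected 60 min after the shift. Δrad3 cells lack rad3, the gene of the checkpoint kinase related to human ATR. Hydroxyurea limits the supply of deoxyribonucleotides, and the WT cells carried the intact gene per their labels. Labels of WT replicate 3 and of all Δrad3 samples place the drug 10 min after the shift, while those of WT replicates 1 and 2 give no such delay. The comparisons asked how much Rad52 signal lay at these genes in each strain, and whether it differed between the strains.

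Levels are the log2 ratio of immunoprecipitated (IP) to input DNA, set to 0 at each array's median, so that 1 stands for a ratio 2 times that of the median probe. There was no control IP, so a level is relative to the rest of the same array. The median spot was at least 5.04 times as bright as its local background in the input and 5.10 times in the IP on every array. The targeted gene was read first. In the input, 24 of the 33 probes of rad3 were not well above background in the library labelled WT replicate 2, and 9 of 33 in each Δrad3 library. None of these probes was that dim in WT replicates 1 and 3. The library labelled WT replicate 2 therefore went against its label, and counts are also given without it. Replicates 1, 2 and 3 of both strains shared a slide and a scan by number. Whether replicates were grown separately is not stated in the labels, and p-values cover the spread between arrays alone.

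5S rRNA is the small RNA of the large ribosomal subunit, and RNA polymerase III makes it. The factor TFIIIA binds a control region inside the gene, TFIIIC and TFIIIB follow, and in fission yeast a TATA element before the start also takes part. Transcription by RNA polymerase III ends at a run of T. Rad52 is a protein of homologous recombination, and tRNA genes, also made by RNA polymerase III, are known in yeasts as places where replication forks can slow.

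The 5S sequence itself is shown first, because the members are near copies of each other while the signal was read from the DNA beside them. The commonest form had 119 bases, and 20 of the 32 members matched it in full. Members with at least 97% identity numbered 28, and SPRRNA.12 and SPRRNA.37 had 96.6%. The other 2 stood well apart. SPRRNA.54 had 71.4% identity (85 of 119 bases, with 17 substitutions and 2 gap bases), and SPRRNA.41, annotated as partial, had 79.8% (95 of 119 bases, with 10 substitutions and 7 gap bases). In the lines that follow, from the RefSeq sequence of ASM294v3, capitals mark bases of SPRRNA.54 and SPRRNA.41 that were substituted against the commonest form.
commonest 5S sequence: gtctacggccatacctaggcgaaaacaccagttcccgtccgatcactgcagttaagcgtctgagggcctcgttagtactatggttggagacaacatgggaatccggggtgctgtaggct
SPRRNA.54: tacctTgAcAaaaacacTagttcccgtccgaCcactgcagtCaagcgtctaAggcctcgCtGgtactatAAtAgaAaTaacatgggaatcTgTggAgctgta
SPRRNA.41: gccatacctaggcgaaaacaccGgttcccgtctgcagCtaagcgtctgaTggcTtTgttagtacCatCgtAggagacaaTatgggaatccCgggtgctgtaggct

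The flanks were searched for letters known from genes of this kind. TATAA stood in the 50 bases before the start, on the gene's strand, in 18 of 32 members (56.3%), against 13.7% of all annotated genes and 38.4% of tRNA genes. TATATA stood there in 10 (31.3%, against 6.27% of all genes and 37.7% of tRNA genes), where both motifs can share letters. The letters TATA began 25 to 33 bases before the start in 23 members, at 29 bases in 15 of them, and 7 members had none in the 50 bases. A wider window ran from 250 bases before to 50 after the start, on both strands. TATAA was found there in 93.8% of members, 71.9% of all genes and 86.1% of tRNA genes, and TATATA in 46.9%, 24.0% and 51.7%. TTTT followed within 50 bases of the end in 31 of 32 members (96.9%), against 47.0% of all genes and 98.0% of tRNA genes, and SPRRNA.54 was the member without it. GTTCGANNC, the B box of tRNA genes, was in 0 of 32 members and in 78.1% of tRNA genes. Start and end are those of the stretch aligned to the commonest form, which for SPRRNA.54 (II 3096972 to 3097073) covers bases 12 to 115 of it and for SPRRNA.41 bases 8 to 119. A match is a description of letters and not a mapped site.

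The 50 bases before the start are given for a member high in both strains (SPRRNA.39), the member with the highest mean (SPRRNA.07), the member that differed most between strains (SPRRNA.54) and the member with the lowest mean (SPRRNA.27), with each TATA run in capitals.
SPRRNA.39: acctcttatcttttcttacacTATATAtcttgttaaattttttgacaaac
SPRRNA.07: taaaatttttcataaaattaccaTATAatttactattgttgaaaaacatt
SPRRNA.54: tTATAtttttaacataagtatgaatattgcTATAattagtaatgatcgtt
SPRRNA.27: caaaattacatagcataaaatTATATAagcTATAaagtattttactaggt
The high and the low members thus both carried TATA runs. After the end of SPRRNA.54 the next 50 bases held no run of 4 T, whereas those after SPRRNA.07 held several, in capitals here.
after SPRRNA.54: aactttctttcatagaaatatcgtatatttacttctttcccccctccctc
after SPRRNA.07: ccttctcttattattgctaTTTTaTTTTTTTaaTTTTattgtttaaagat

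None of the 32 members overlapped a coding gene or a long noncoding RNA. Of the gaps between coding genes that hold them, 20 were tandem, 10 divergent and 2 convergent. A tRNA gene lay within 1 kb of 10 members, and the midpoint of an AT-rich island within 1 kb of 10. Members were far apart, with 11048 bp between the closest pair, SPRRNA.05 and SPRRNA.06, and a median of 97508 bp to the nearest other member. The 5S sequence was less AT-rich than its surroundings, at a median of 45.4% A+T against 67.7% over 1 kb, where the median around all probes was 64%. The array had a probe that touched the 5S sequence at 8 members only, by 7 to 10 bases, or 49 bases at SPRRNA.54. The values below therefore came almost wholly from DNA beside the 5S sequence. Whether those probes are unique in the genome was not tested, and SPRRNA.03 and SPRRNA.04 share the same 50 bases before the start. Per the labels of WT replicates 1 and 2, fragments were sheared to roughly 400 to 500 bp, so DNA of the gene and of its flanks was pulled down together.

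Rad52 IP/input stood above the array median at most 5S rRNA genes. The median over the 32 members was 0.43, 0.42 and 0.66 on WT replicates 1, 2 and 3 (0.50 ± 0.14, SD, n = 3) and 0.41, 0.47 and 0.75 on the Δrad3 replicates (0.54 ± 0.18, SD, n = 3). The median over all 10390 windows of annotated genes lay between -0.03 and 0.02 on each array. The strains overlapped, and both replicates 3, on the same slide, were the highest. The mean of a member was above 0 for 31 of 32 members in WT and for all 32 in Δrad3. On all 6 arrays 20 members were positive (62.5%, against 12.8% of all windows). By the mean over 6 arrays, 23 of the 32 members were among the top 10% of windows, 17 among the top 5% and 6 among the top 1%.

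**Figure D1:**
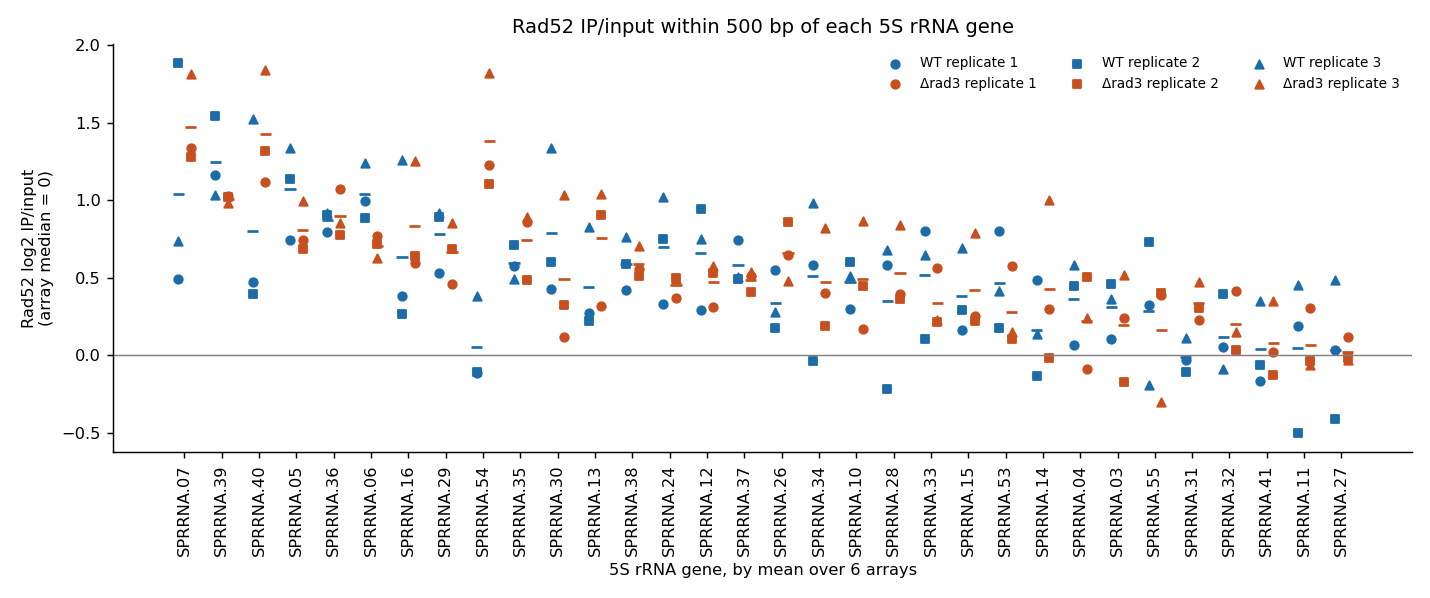
Rad52 log2 IP/input within 500 bp of each of the 32 5S rRNA genes (vertical axis, array median at 0), ordered by the mean over 6 arrays. Points are arrays (blue WT, red Δrad3, shape for the replicate number) and dashes are strain means. SPRRNA.54 is the member whose strains lie farthest apart, with WT values of -0.11 to 0.38 and Δrad3 values of 1.10 to 1.82.

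Enrichment in a strain was called where limma gave an adjusted p under 0.05 (Benjamini-Hochberg over 10390 windows) and the mean log2 was at least 0.5. In WT 14 of 32 members were enriched, where the background over all windows was 4.08%. In Δrad3 13 were enriched, against a background of 3.12%. Both lists held 9 members, which is 64.3% of the WT list and 69.2% of the Δrad3 list, and 14 members were in neither. Without the library labelled WT replicate 2, 10 members were enriched in WT (background 1.68%), of which 8 were among the 14, and 14 in Δrad3 (background 5.86%). With replicate number as a block, 16 were enriched in WT (background 5.55%) and 14 in Δrad3 (background 5.53%). With 1 array left out, counts ran from 4 to 15 in WT and from 0 to 14 in Δrad3. Those of all windows moved both ways as well, up to 1024 of 10390 in WT without WT replicate 1. The lower counts were these. In Δrad3 0 members were called without replicate 3 (background 0.0577%), 6 without replicate 1 (background 0.751%) and 6 without replicate 2 (background 0.626%). In WT 4 were called without replicate 3 (background 0.924%).

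The signal was narrow. Averaged over the members, it was 0.58 in the 500 bp before the gene midpoint and 0.61 in the 500 bp after it in WT, and 0.72 and 0.56 in Δrad3. Between 500 and 1000 bp away it was 0.21 and 0.20 in WT and 0.34 and 0.31 in Δrad3. Beyond 1 kb, bin means lay between -0.03 and 0.20 in both strains. The values at the summit lay high on every array, and no side was the higher in most members of both strains: the upstream mean exceeded the downstream mean in 14 of 32 members in WT and in 20 of the 30 with both sides measured in Δrad3.

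**Figure D2:**
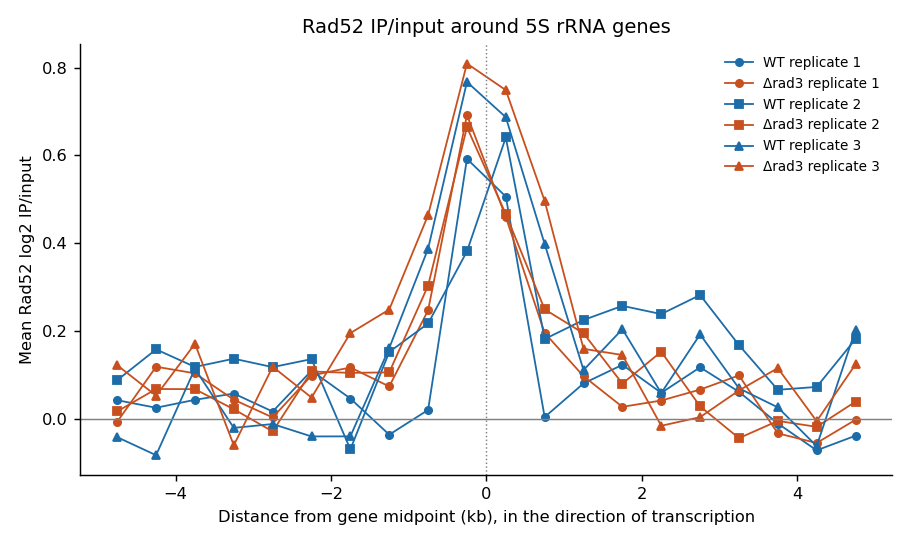
Mean Rad52 log2 IP/input in bins of 500 bp around the 5S rRNA gene midpoints (horizontal axis in kb, in the direction of transcription), one line per array. All 6 lines rise within 500 bp of the gene, to 0.38 to 0.81, and lie between -0.08 and 0.28 beyond 1.5 kb.

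A local excess was computed to take out raised stretches of a chromosome, as the mean within 500 bp minus the mean of probes 2 to 5 kb away. Its median over the members was 0.34, 0.24 and 0.69 on the WT arrays and 0.43, 0.44 and 0.64 on the Δrad3 arrays, and 0.47 for the means of each strain. It was lowest, and farthest below the level, on the library labelled WT replicate 2. By this measure 10 members were enriched in WT (background 3%) and 14 in Δrad3 (background 3.77%). The WT count was 6 without WT replicate 3 (background 2.74%), and the Δrad3 count was 6 without Δrad3 replicate 3 (background 1.48%). SPRRNA.36 and SPRRNA.35 were enriched in both strains by level but in neither by local excess. SPRRNA.36 stood at 0.31 in WT and 0.45 in Δrad3, and SPRRNA.35 at 0.14 and 0.29. SPRRNA.05 and SPRRNA.29, also enriched in both by level, kept the call by local excess in Δrad3 alone.

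Input and IP signals were also read apart. The median log2 input signal over the members was 0.38, 0.33 and -0.29 on WT replicates 1 to 3 and 0.23, 0.37 and -0.38 on the Δrad3 replicates, and the IP medians were 0.53, 0.58 and 0.25 against 0.62, 0.70 and 0.21. Input at these genes was thus low on both arrays of slide 3, where IP/input was highest. The part of input signal in the levels was not tested. The IP itself lay above its array median on each of the 6 arrays.

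Among the members, SPRRNA.07, SPRRNA.39, SPRRNA.40, SPRRNA.05, SPRRNA.36 and SPRRNA.06 had the highest means over the 6 arrays. All were enriched in both strains with all 6 arrays. Without the library labelled WT replicate 2, SPRRNA.07 and SPRRNA.40 lost the WT call. So did SPRRNA.35, SPRRNA.12, SPRRNA.24 and SPRRNA.30, named below. SPRRNA.39 (II 2032410 to 2032528), 177 bp from a tRNA gene for asparagine and beside qcr1, which encodes a subunit of respiratory complex III, read 1.16, 1.55 and 1.04 in WT and 1.03, 1.02 and 0.98 in Δrad3. Each of its WT values was above each Δrad3 value, by little, and the difference of -0.24 (SE 0.17) was not called (limma adjusted p = 0.702). SPRRNA.07 (III 2308122 to 2308319), within 200 kb of the right end of chromosome III, read 0.49, 1.89 and 0.74 in WT and 1.33, 1.28 and 1.82 in Δrad3. The strains overlapped only through the library labelled WT replicate 2, which was the highest of the 6 arrays. Without that library SPRRNA.07 stood at 0.61 in WT and was no longer enriched there, and with the replicate block added its difference of 0.96 was called (limma adjusted p = 0.0071). With all 6 arrays that difference was 0.44 (SE 0.32, limma adjusted p = 0.707). Its local excess was lower than its level, at 0.67 in WT and 1.02 in Δrad3.

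SPRRNA.40 (II 2442700 to 2442852) read 0.47, 0.40 and 1.53 in WT and 1.12, 1.32 and 1.84 in Δrad3. On each slide the Δrad3 array was the higher, as at 5 of 32 members and 22.0% of all windows. WT replicate 3 overlapped with the Δrad3 values. The difference of 0.63 (SE 0.30) was the largest after that of SPRRNA.54 and was not called (limma adjusted p = 0.587). The midpoint of an AT-rich island lies 524 bp from SPRRNA.40. SPRRNA.36 (II 3938578 to 3938707), in the gap before thi2, a gene of thiamine synthesis, read 0.80, 0.91 and 0.92 in WT and 1.07, 0.78 and 0.85 in Δrad3. It varied least between WT arrays among these 6 members, and the strains overlapped.

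SPRRNA.05 (III 1690945 to 1691075) and SPRRNA.06 (III 1702123 to 1702252) form the closest pair and were the only members in convergent gaps. SPRRNA.05 read 0.75, 1.14 and 1.34 in WT and 0.75, 0.68 and 1.00 in Δrad3, and the strains overlapped. SPRRNA.06 read 0.99, 0.89 and 1.24 in WT and 0.77, 0.72 and 0.63 in Δrad3, with every WT value above every Δrad3 value. Its difference of -0.34 (SE 0.16) was the lowest of the 32 and was not called (limma adjusted p = 0.579). Local excess at SPRRNA.06 was 1.02 in WT and 0.83 in Δrad3. At SPRRNA.05 it was 0.43 in WT and 0.68 in Δrad3, against levels of 1.07 and 0.81, so the order of the strains turned and the WT call was lost.

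Other members enriched in both strains were SPRRNA.29, SPRRNA.35 and SPRRNA.38. SPRRNA.29 (II 520254 to 520494) read 0.53, 0.89 and 0.92 in WT and 0.46, 0.69 and 0.85 in Δrad3. SPRRNA.35 (II 2322705 to 2322851) read 0.57, 0.71 and 0.50 in WT and 0.86, 0.48 and 0.89 in Δrad3. Both had overlapping strains. SPRRNA.38 (II 4210360 to 4210500), near crb2, which encodes a DNA damage checkpoint adaptor, read 0.42, 0.59 and 0.76 in WT and 0.56, 0.51 and 0.71 in Δrad3, with strain means of 0.59 and 0.59. Its values in both strains covered nearly the same range.

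SPRRNA.12, SPRRNA.24 and SPRRNA.37 were enriched in WT and missed the call in Δrad3. SPRRNA.12 (I 912230 to 912396), near pli1, the gene of a SUMO ligase, read 0.29, 0.94 and 0.75 in WT and 0.31, 0.53 and 0.58 in Δrad3. SPRRNA.24 (III 523289 to 523475) read 0.33, 0.75 and 1.02 in WT and 0.37, 0.50 and 0.50 in Δrad3. Both were lowest on replicate 1 in each strain. SPRRNA.37 (II 4161556 to 4161775), beside sam1, the gene of S-adenosylmethionine synthetase, read 0.74, 0.50 and 0.50 in WT and 0.51, 0.41 and 0.54 in Δrad3. SPRRNA.13 and SPRRNA.26 were enriched in Δrad3 and missed the call in WT. SPRRNA.13 (I 2976790 to 2976979) read 0.27, 0.23 and 0.83 in WT and 0.32, 0.91 and 1.04 in Δrad3. SPRRNA.26 (III 926108 to 926294), next to xlf1, a gene of DNA end joining, read 0.55, 0.18 and 0.28 in WT and 0.65, 0.86 and 0.48 in Δrad3. None of these 5 had a called strain difference, but neither had any of the 10390 windows. A call in 1 strain alone thus does not show a difference, and the missing call does not show its absence. SPRRNA.30 and SPRRNA.33 (WT) and SPRRNA.16 (Δrad3) completed the lists and fell outside the naming rule.

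The lowest members were SPRRNA.27, SPRRNA.11 and SPRRNA.41. SPRRNA.27 (II 1199882 to 1200066), between rpt2 and maa1, read 0.03, -0.41 and 0.49 in WT and 0.12, -0.02 and -0.03 in Δrad3. SPRRNA.11 (I 456527 to 456645) read 0.19, -0.50 and 0.45 in WT and 0.30, -0.04 and -0.06 in Δrad3. Both carry the commonest 5S sequence or, for SPRRNA.11, a near copy of it (97.5% identity), and at both the library labelled WT replicate 2 was the lowest array. SPRRNA.41 (II 3171566 to 3171645), the partial copy, lies between pob3, which encodes a subunit of the histone chaperone FACT, and rpl29. It read -0.16, -0.06 and 0.35 in WT and 0.02, -0.13 and 0.35 in Δrad3, so its values lay on both sides of 0 in both strains.

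**Figure D3:**
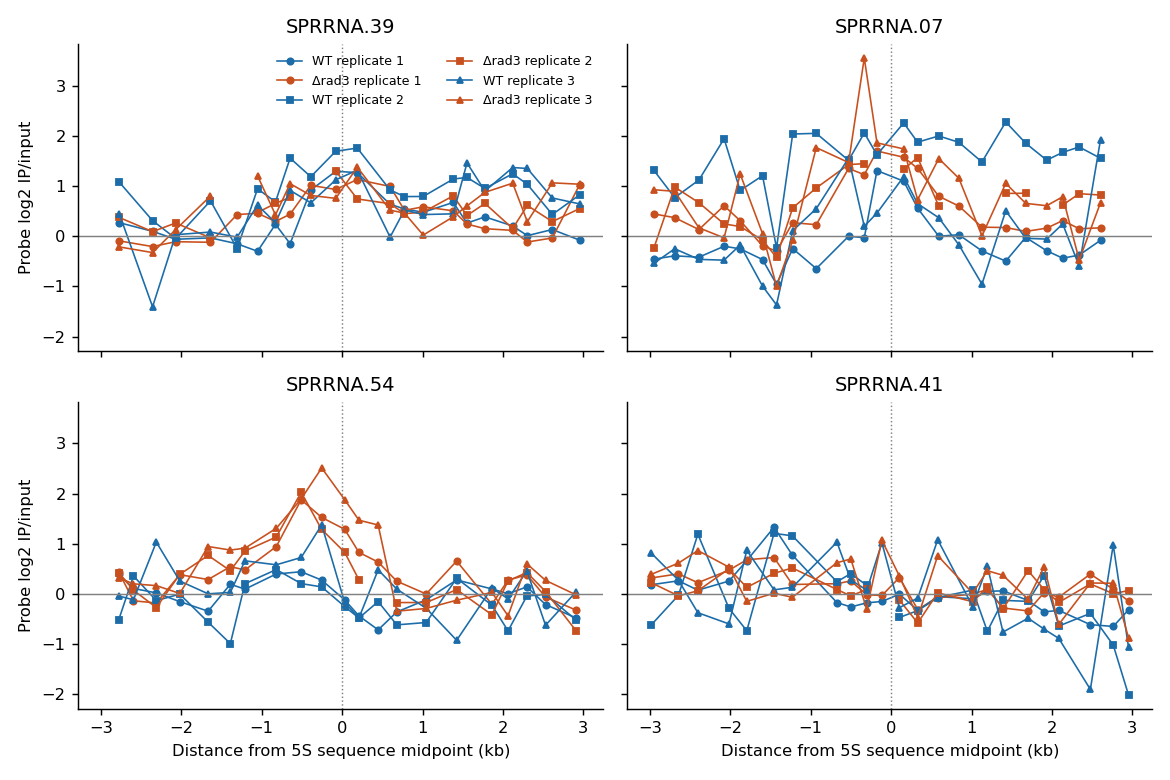
Rad52 log2 IP/input of single probes within 3 kb of 4 named 5S rRNA genes (horizontal axis in kb from the midpoint of the 5S sequence, in the direction of transcription), one line per array. Signal rises over SPRRNA.39 in both strains, over SPRRNA.54 in Δrad3, and not over SPRRNA.41, while the library labelled WT replicate 2 is high across most of the stretch around SPRRNA.07.

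The strains stood close together at these genes as a group. The median difference, Δrad3 minus WT, was 0.01 over the 32 members, against 0.02 over all windows, and 17 of 32 differences were above 0. Apart from SPRRNA.54 the differences ran from -0.34 to 0.63. By limma 0 of 32 members were higher in Δrad3 at an adjusted p under 0.05, where the background was 0%, and 0 were lower, where it was also 0%. At an unadjusted p under 0.05, 2 members were higher (SPRRNA.54 and SPRRNA.31, background 6.64%) and 0 lower (background 2.14%). The values did not overlap between strains at 2 members with Δrad3 higher (SPRRNA.54 and SPRRNA.31, background 9.72%) and at 2 with Δrad3 lower (SPRRNA.39 and SPRRNA.06, background 5.79%). Shares of this size were near the background. Member means in WT and Δrad3 correlated at Pearson r = 0.58 (Spearman rho 0.70) across 32 genes, and at r = 0.77 (rho 0.81) across the 31 without SPRRNA.54. Genes share the arrays and slides, so this is a description.

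**Figure D4:**
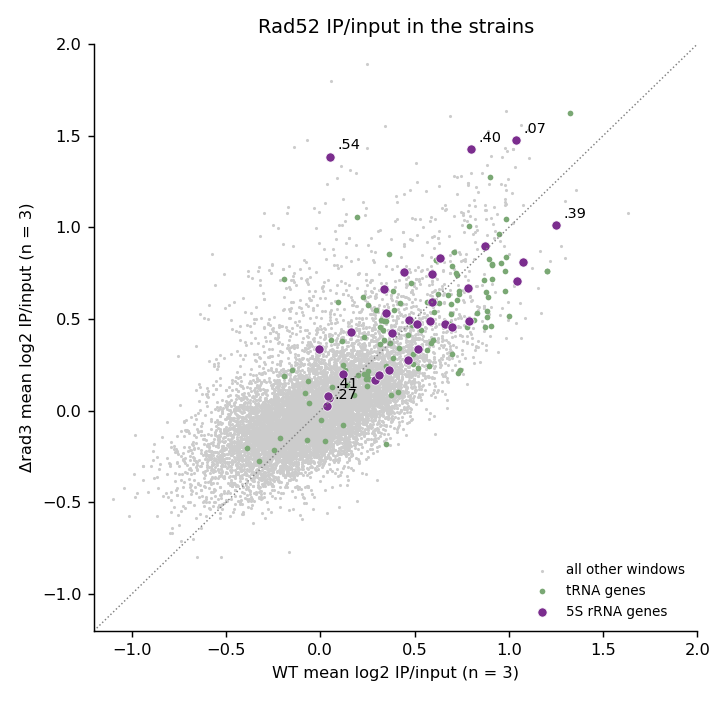
Mean Rad52 log2 IP/input of every gene window in WT (horizontal) and Δrad3 (vertical), n = 3 arrays each, with 5S rRNA genes in purple, tRNA genes in green and all others in grey. The dotted line marks equal values. Most 5S rRNA genes lie up and to the right of the cloud near that line, and SPRRNA.54 lies far above it, at 0.05 in WT and 1.39 in Δrad3.

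SPRRNA.54 (II 3096968 to 3097078, reverse strand) departed from that pattern. It lies in a divergent gap between zuo1, which encodes a ribosome-associated chaperone, and rap1, which encodes a telomere protein, with the midpoint of an AT-rich island 727 bp away. It read -0.11, -0.11 and 0.38 in WT and 1.23, 1.10 and 1.82 in Δrad3. Every Δrad3 value was above every WT value by a wide margin. The difference of 1.33 (SE 0.22) had a limma adjusted p of 0.091 and so was not called. With replicate number as a block it was called (SE 0.14, limma adjusted p = 0.011), 1 of 32 members against a background of 0.722%. With the block, and with the library labelled WT replicate 2 left out, the difference was 1.39 (limma adjusted p = 0.0015). Most alternatives did not call it: the difference passed in 4 of 22 settings. SPRRNA.54 is the member with the least usual 5S sequence and the only one with no TTTT run after its end.

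The difference at SPRRNA.54 was larger in the IP channel than in the input. The mean log2 IP signal of its 5 probes was 0.31, -0.0010 and 0.71 in WT and 1.83, 1.79 and 2.55 in Δrad3, and the input was 0.44, 0.11 and 0.33 against 0.61, 0.72 and 0.76. Every Δrad3 value was above every WT value in both channels. Its local excess was 0.17 in WT and rose to 1.40 in Δrad3, by 1.23 (limma adjusted p = 0.035). In the tested difference of local excess 1 of 32 members was higher in Δrad3 (background 0.183%), and 0 were lower (background 0.00963%). The call for SPRRNA.54 held in 14 of 23 alternative settings. Among fits with 1 array fewer, it was lost without WT replicate 1 (adjusted p = 0.082) or the library labelled WT replicate 2 (adjusted p = 0.175), by limma. It was also lost without Δrad3 replicate 2 (adjusted p = 0.077) or Δrad3 replicate 3 (adjusted p = 0.213), by limma.

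Probe by probe, the Δrad3 level at SPRRNA.54 peaked before the gene, while the strain difference was about as large on it, at 1.47 for the probe at -509.5 bp, 1.18 at -254.5 bp, 1.51 at 31.5 bp and 1.33 at 208.5 bp. The probe centred at -509.5 bp from the middle of the 5S sequence read 0.44, 0.20 and 0.72 in WT and 1.88, 2.02 and 1.89 in Δrad3. At -254.5 bp it was 0.27, 0.14 and 1.37 against 1.52, 1.28 and 2.51, and at 31.5 bp, on the 5S sequence, -0.12, -0.25 and -0.17 against 1.29, 0.83 and 1.88. By 679.5 bp on the downstream side the strains overlapped, at -0.36, -0.62 and 0.09 in WT and 0.25, -0.17 and -0.35 in Δrad3. The highest probe of each Δrad3 array was thus before the gene and not on it. AT-rich islands as a class had medians over 324 midpoints of -0.08, 0.41 and 0.38 in WT and 0.40, 0.47 and 0.67 in Δrad3, with WT replicate 1 the low array. The island beside SPRRNA.54 and the gene cannot be told apart at this probe spacing.

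SPRRNA.31 (II 783253 to 783498) had the next smallest p for the strain difference. It read -0.03, -0.10 and 0.11 in WT and 0.23, 0.30 and 0.47 in Δrad3. All of its Δrad3 values were above its WT values, at a difference of 0.34 (SE 0.15, limma adjusted p = 0.562). The nearest island midpoint lay 37975 bp from it.

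Values were then split by what the rule did not use, as a description. The 10 members with an island midpoint within 1 kb had medians of 0.71 in WT and 0.75 in Δrad3, and the 22 others 0.47 and 0.47. By local excess the 10 stood at 0.39 in WT and 0.63 in Δrad3 and the 22 at 0.47 and 0.42, so in WT the order turned. Across the 32 members, the level fell with the distance to the nearest island on a log10 scale, at r = -0.30 (rho -0.40) in WT and r = -0.48 (rho -0.47) in Δrad3. Coding genes with an island within 1 kb stood at 0.06 in WT and 0.28 in Δrad3, below the 5S rRNA genes far from islands. Members with a tRNA gene within 1 kb had medians of 0.55 and 0.56, and the others 0.47 and 0.47. The 8 members with a probe touching the 5S sequence had 0.84 and 0.86, and the 24 others 0.45 and 0.46, while in the 8 the closest probes sat nearer to the gene. Members identical to the commonest sequence (20) had 0.49 and 0.51, and the other 12 had 0.52 and 0.48. SPRRNA.41 and SPRRNA.54, the least similar in sequence, stood low in WT, while SPRRNA.12 and SPRRNA.37 were enriched there. SPRRNA.27, the lowest member, carries the commonest sequence in full.

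The other classes transcribed by RNA polymerase III were set beside the 5S rRNA genes. tRNA genes (116 with enough probes of 151) had a median of 0.48 in WT and 0.46 in Δrad3, and 55 and 37 of them were enriched. The 5S median minus the tRNA median was 0.04, -0.04 and 0.08 on the WT arrays and 0.04, 0.01 and 0.27 on the Δrad3 arrays. Both classes thus stood at about the same level on 5 arrays, and Δrad3 replicate 3 was the exception. Local excess was 0.47 in both strains for the 5S rRNA genes and 0.37 in WT and 0.35 in Δrad3 for tRNA genes. The U6 RNA gene snu6, also a polymerase III gene, read 0.30, -0.74 and -0.13 in WT and 0.33, 0.59 and 0.94 in Δrad3. Its values did not overlap between strains, by little on slide 1, as at 9.72% of all windows with Δrad3 higher. The difference of 0.81 was not called. Small nuclear and nucleolar RNA genes (63), most of them made by RNA polymerase II, stood at 0.33 and 0.24, and coding genes at -0.02 and -0.01.

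**Figure D5:**
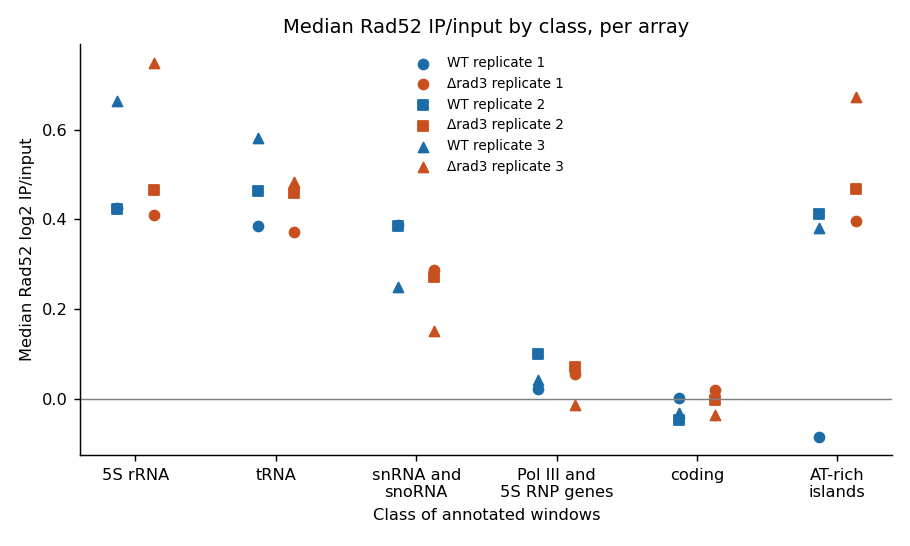
Median Rad52 log2 IP/input over the windows of each class (vertical axis, array median at 0), one point per array. 5S rRNA genes (0.41 to 0.75) and tRNA genes (0.37 to 0.58) are raised on all 6 arrays, genes of the 5S and polymerase III pathway and coding genes lie near 0, and AT-rich islands are low on WT replicate 1.

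The measured genes that make or bind 5S rRNA were not raised as a group. The list held 30 genes, for TFIIIA, TFIIIC, TFIIIB and RNA polymerase III subunits, for partners of 5S rRNA, and maf1. By symbol 4 were not found in the annotation, among them sfc2, the gene of TFIIIA, so that gene was not read. The 26 found were measured, with a median of 0.07 in WT and 0.03 in Δrad3. The call of enrichment was met by 1 of 26 in WT, near the background of 4.08%, and 0 in Δrad3 (background 3.12%). That gene was rpl501, for the ribosomal protein L5 that binds 5S rRNA, at 0.57 ± 0.29 (SD, n = 3) in WT and 0.19 ± 0.12 in Δrad3. Its paralog rpl502 was at 0.34 and 0.14, and rpl1102, for the partner protein L11, at 0.41 and 0.18. The other L11 gene, rpl1101, was the lowest of the 26 in WT, at -0.58 and -0.22. Of the measured genes for TFIIIC subunits, sfc3 was lowest in WT, at -0.39 (-0.17 in Δrad3), and sfc4 lowest in Δrad3, at -0.25. The highest in both strains was sfc9, at -0.063 and 0.0066, and brf1 of TFIIIB was at 0.05 and 0.19. None of the 26 was called higher or lower between strains.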

How the data were processed

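The submitters' processing notes name Agilent Feature Extraction 10.7.3.1, whose output was deposited for 6 arrays of 45220 spots, 42707 of them probes. The deposited intensity columns had their background subtracted, a spatial trend removed and dyes scaled linearly by the authors' run, per the file headers. The deposited log10 ratio, red over green, matched the ratio of processed signals for at least 99.9% of probes. Per the labels input carried dye 647 and IP dye 555 on all arrays, although the series text speaks of reciprocal labelling, so dye bias was not removed. WT replicate 3 and the Δrad3 samples carry an RNA extraction text instead of the chromatin text. Ratios of the deposited intensities were put on a log2 scale here and centred on the array median, with no loess step.

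Control spots and outlier spots were left out. The outlier spots fell unevenly, with 3535 on Δrad3 replicate 2 and at most 464 on any other array. The protocol name in the file headers begins with ChIP for both replicates 2 and with CGH for the other arrays. Probes with input well above background on at least 3 arrays (42659) were averaged per gene window (at least 2 probes). Both strains entered 1 limma fit of 10390 windows, with a Benjamini-Hochberg adjusted p under 0.05 as threshold. The file headers name build Spombe:NCBI:Feb2002 for the coordinates, and in 107 of 107 windows of 100 kb used here they matched ASM294v3 within 20 bp. On chromosome I beyond 3.7 Mb the median shift was 6150 bp, and its 6236 probes were not named. AT-rich islands are merged stretches of 1000 bp with at least 72% A+T, mostly outside coding sequence.

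Replicate numbers mark a shared slide and scan, per the file headers, and pair the arrays in that sense. Deviations of same-numbered arrays from their strain means correlated at 0.56, 0.13 and 0.27 for replicates 1, 2 and 3. The highest correlation of the same WT arrays with a Δrad3 array of another number was 0.00044, 0.20 and -0.17. By correlation the library labelled WT replicate 2 was thus not closest to its own number. Members, lists and tests were chosen with earlier results of these data known. Named members were the 6 highest and 3 lowest by mean, the 6 with the smallest p for the strain difference, up to 15 of those called, SPRRNA.07 and SPRRNA.54, the closest pair and the 3 most divergent in sequence. On simulated data for the strain contrast (10390 windows), 66% of windows changed by log2 1 and 98% of those changed by log2 2 were called, with 5 false calls. The simulated noise was independent between arrays, with no slide effect, and 100 windows of each size were changed. These shares hold for that setting and are not the power in the data, where 0 of 10390 windows were called. Alternatives were background correction, scaling, filters, window width, base composition, variance model, the block and leaving out arrays. The fit without probes on the 5S sequence was chosen after seeing the data. Tools were R 4.3.3 with limma 3.58.1 and the data.table package (1.17.8), and Python 3.11.15 with numpy 2.4.6, pandas 2.3.3, biopython 1.88 and matplotlib 3.10.9.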

Additional observations from a re-analysis of the deposited data

Results flagged for a closer look

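SPRRNA.54 was singled out because its values differed between the strains. The difference, Δrad3 minus WT, was 1.33 (limma adjusted p = 0.011 with replicate number as a block, and 0.091 without it). It was called in 4 of 22 alternative settings. On each slide the Δrad3 array was the higher, as at 22.0% of all windows. Its local excess over the flanks differed by 1.23 (limma adjusted p = 0.035), a call that held in 14 of 23 alternative settings. The input signal of its probes was also higher in Δrad3, and its part was not tested. An AT-rich island midpoint lies 727 bp away.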

How the results depend on the processing

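With another background correction (normexp) 0 members were enriched in WT and 2 were higher in Δrad3, as were 131 of 10390 windows. The medians were then 0.16 in WT and 0.32 for the strain difference. The WT local excess was then 0.20 at the median with 3 members enriched (66 of 10383 windows). With a trended robust variance 0 members were enriched in WT and 1 in Δrad3 (103 of 10390 windows). Under each of these settings 0 of 10390 windows were enriched in WT.
Causes of these shifts were not tested. In windows of 250 bp the WT median was 0.76, the strain difference -0.11 and the WT excess over tRNA genes 0.15. The WT local count was 18 (360 of all 10311 windows). In windows of 1000 bp 7 were enriched in WT (352 of all 10448 windows), with a median of 0.30 and a strain difference of 0.0618. The WT local count was then 4 (196 of 10441). Regressed on A+T content, the strain difference was -0.0778, and in Δrad3 the local excess was 0.33 with 9 enriched (267 of 10383 windows). Arrays scaled to one spread gave 1 member higher in Δrad3, SPRRNA.54 (132 of 10390 windows). The replicate block gave 1 as well (75 of 10390 windows). Without the library labelled WT replicate 2 the block gave 2 (346 of 10390), with a local count of 17 in WT (370 of 10383). With all 6 arrays this pairing ended no enrichment call of a member.
Leaving out 1 array, counts ran from 4 to 15 in WT and 0 to 14 in Δrad3, and local counts from 6 to 13 and 6 to 15. Over all windows counts ran from 96 to 1024 and 6 to 609 of 10390, and local counts from 181 to 507 and 154 to 413 of 10383. The median strain difference ran from -0.0740 to 0.0694.
Single members near 0 changed sign. With normexp SPRRNA.41 and SPRRNA.54 fell to -0.23 and -0.24 in WT, and the SPRRNA.05 difference rose to 0.26. SPRRNA.11 was -0.15 in both strains with the strict filter, -0.27 and -0.15 in the wide window, and -0.13 and -0.14 without probes on the 5S sequence. SPRRNA.27 was -0.13 in WT with the probe median, -0.15 in the wide window, and -0.16 in Δrad3 in bins of 1000 bp. SPRRNA.41 was -0.11 in WT in windows of 250 bp. Leaving out 1 array, WT levels ran from -0.11 to 0.14 for SPRRNA.41, -0.16 to 0.32 for SPRRNA.11, -0.19 to 0.26 for SPRRNA.27 and -0.11 to 0.14 for SPRRNA.54, lowest without WT replicate 3.
Over all alternatives no member was called lower in Δrad3. The number of arrays and, on slide 3, a signal 5.04 to 6.53 times background in the input limit the precision.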
